A study of Mus musculus with 3 samples.

Results

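Zfp36, Zfp36l1 and Zfp36l2 are the genes of the Zfp36 family that were counted in mouse thymus cells, and they are described here by thymocyte stage and by p53 genotype. They are 3 of 32285 genes in the deposited matrices, found by symbol, in cells with at least 500 genes and under 10% mitochondrial UMIs (unique molecular identifiers, which mark single RNA molecules). The family was chosen with a result of these data in view, namely that Zfp36l2 was low in CD4-positive CD8-positive (DP) cells of the p53 AD/- library, so that difference is given as a description. Zfp36l3, another gene of the family, had 0 UMIs in each of the 3 libraries.

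The study profiled single cells of whole thymus from female mice of 4 weeks that carry germline changes of p53, with 1 library for each of the genotypes p53+/-, p53 AD/- and p53-/-. Every mouse thus had at least 1 allele that is not the normal one, and no p53+/+ library is among the samples. The sources do not say what the AD allele is, beyond a series title that speaks of p53 dimers, and the strain labels give BALB/C with C57BL6, C57BL7 and C57BL8 for the genotypes in the order above. The design text calls the p53+/- group WT. With 1 mouse per genotype a difference between libraries cannot be told apart from a difference between mice, dissections or library preparations, so no test between genotypes was possible and all 95% intervals cover counting error only.

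The proteins of this family carry a pair of CCCH zinc fingers that bind AU-rich elements in the 3' untranslated region (3' UTR) of mRNAs. Once bound, they recruit the CCR4-NOT deadenylase, and the mRNA loses its tail and is degraded. Zfp36 (tristetraprolin) is best known for limiting Tnf and other cytokine mRNAs and is itself an immediate early gene. Zfp36l1 and Zfp36l2 act redundantly in lymphocyte development, where they hold back cell cycle entry during beta selection, the checkpoint at which CD4-negative CD8-negative (DN) thymocytes with a productive receptor beta chain begin to divide and become DP cells.

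The family's own mRNAs carry the motif that its proteins bind, and these sites are shown first because later comparisons group all genes by the same letters. Zfp36 (ENSMUSG00000044786) lies on chromosome 7 at 28376784 to 28380253, Zfp36l1 (ENSMUSG00000021127) on chromosome 12 at 80107754 to 80113013 and Zfp36l2 (ENSMUSG00000045817) on chromosome 17 at 84183931 to 84187947, all on the minus strand of GRCm38 in GENCODE M21. The heptamer TATTTAT, searched on the mRNA strand and counted also where matches overlap, occurs 3 times in the 3' UTR of each gene. The 9 sites are printed 5' to 3' on the minus strand with the heptamer in capitals and 9 bases on either side, and coordinates are those of the heptamer.
Zfp36, chr7:28376977-28376983: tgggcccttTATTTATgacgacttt
Zfp36, chr7:28376962-28376968: tgacgacttTATTTATtgtattaag
Zfp36, chr7:28376937-28376943: attttatagTATTTATatatattgg
Zfp36l1, chr12:80108433-80108439: atcaaaacgTATTTATtgccaaact
Zfp36l1, chr12:80108392-80108398: ttttgttcaTATTTATcgggatgac
Zfp36l1, chr12:80108178-80108184: ctgttggatTATTTATtttagaaat
Zfp36l2, chr17:84184925-84184931: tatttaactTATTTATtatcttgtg
Zfp36l2, chr17:84184877-84184883: tccatactgTATTTATcgagtatga
Zfp36l2, chr17:84184691-84184697: tgtatgtaaTATTTATttcattaat

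The Zfp36 3' UTR is 774 bases long, and its 3 heptamers stand within 50 bases of each other. Of 3' UTR windows of that length, 21.1% hold at least 1 heptamer and 0.95% hold at least 3. The 3' UTRs of Zfp36l1 (1835 bases) and Zfp36l2 (1822 bases) are longer, and 4.02% and 4.04% of windows of their lengths hold at least 3. In each gene 1 of the 3 heptamers sits in the longer nonamer TTATTTATT, which 4.82%, 9.23% and 9.26% of windows of the respective lengths hold. A match in these windows is a description of the letters and does not show that a protein binds there.

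The p53+/- library held 8150 filtered cells, the p53 AD/- library 6171 and the p53-/- library 9543, with median UMIs per cell of 3238, 2484 and 3062. From 15 to 29 cell barcodes were shared by a pair of libraries. Trp53, which encodes p53, stood at 86.1, 90.9 and 74.9 UMIs in every 1000000 UMIs (CPM) in that order, so its count did not set the p53-/- library apart. The extent of the deletion is not given here, so Trp53 reads do not check the genotype. Cells were clustered without the 3 genes, and clusters were named from marker lists. The DN-like class had Il2ra and Hes1 among its top genes, after Plac8 and Crip1, with as many gamma-delta T cell markers, Tcrg-C1 and Tcrg-C2. Other thymocyte classes were cycling-like (Top2a, Pcna), quiescent DP-like (Rag1, Cd8b1, Arpp21), a class of selected DP with early single-positive (SP) cells (Cd5, Tox, Itm2a) and mature SP-like (Klf2, Ms4a4b). Below, a cluster is called led by genes that are among its top 10. Depth differed between classes, from medians of 1968 to 2712 UMIs in quiescent DP-like cells to 10529 to 12895 in cycling-like cells, so levels are given as CPM of the summed UMIs of a class. No class of thymus cells is known to lack these genes, so no share of cells with a UMI could serve as a background from free RNA. Levels are not compared between the 3 genes, since counts are not per length and the library chemistry is not known here. Each gene overlaps an annotated gene on the opposite strand, and the use of strand in counting is not given; the opposite gene at Zfp36l2 had 57, 24 and 36 UMIs in the whole libraries, and that at Zfp36 had 0, 0 and 1.

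Each of the 3 genes had its own course along the stages. The libraries were alike in the course of Zfp36 and Zfp36l1 from cycling-like cells onward, apart from the last step of Zfp36l1, and less so in that of Zfp36l2. As a share of UMIs, Zfp36 was low in dividing cells and highest among the 5 thymocyte classes in quiescent DP-like cells. It stood at 18.1 CPM in DN-like, 26.2 in cycling-like, 95.6 in quiescent DP-like, 71.1 in selected and 47.1 in mature SP-like cells of the p53+/- library. The p53-/- library gave 29.7, 30.1, 81, 62.1 and 50.9 CPM, and the p53 AD/- library 17.5, 15, 56.6, 41.6 and 33.1. From cycling-like to quiescent DP-like cells the level was higher in all 3 libraries, by a mean log2 ratio of 1.74 (SD 0.27, n = 3 libraries). From quiescent DP-like to mature SP-like cells it was lower in all 3, with a mean log2 ratio of -0.82 (SD 0.18). DN-like and cycling-like cells were not ordered for Zfp36, since the ratio was positive in 2 libraries and negative in 1. Counted per cell, the step from cycling-like to quiescent DP-like cells ran the other way in all 3 libraries. A cycling-like cell held on average 0.421, 0.197 and 0.425 Zfp36 UMIs in p53+/-, p53 AD/- and p53-/-. A quiescent DP-like cell, which was shallower, held 0.279, 0.121 and 0.201.

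Zfp36l1 took the opposite course after the DP stage, with its highest levels in mature SP-like cells or, in the p53 AD/- library, in selected cells. It stood at 80, 70.1, 112, 220 and 272 CPM from DN-like to mature SP-like cells of the p53+/- library, at 86.1, 86.3, 122, 228 and 278 in the p53-/- library and at 33.7, 43.8, 66.1, 151 and 135 in the p53 AD/- library. The mean log2 ratio was 0.59 (SD 0.09) from cycling-like to quiescent DP-like cells, 1.02 (SD 0.15) from quiescent DP-like to selected cells and 1.17 (SD 0.13) from quiescent DP-like to mature SP-like cells, each positive in 3 of 3 libraries. Selected and mature SP-like cells did not differ in a common direction (mean 0.14, SD 0.26). Counted per cell, Zfp36l1 was also higher in cycling-like cells, at 1.13, 0.574 and 1.22 UMIs in p53+/-, p53 AD/- and p53-/-. Quiescent DP-like cells held 0.326, 0.142 and 0.304. Among the single clusters of selected cells, the one led by Bcl2l11, Gadd45b, Cd69 and Nr4a1, genes induced by strong receptor signals, had the highest Zfp36l1, at 681 CPM in the p53+/- library, 452 in the p53 AD/- library and 597 in the p53-/- library. Zfp36 stood at 65.2, 17.1 and 67.9 CPM in that cluster and Zfp36l2 at 372, 53.7 and 169.

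Zfp36l2 was highest in DN-like cells and varied less over the later stages than either relative. It stood at 637, 432, 407, 459 and 329 CPM from DN-like to mature SP-like cells of the p53+/- library, at 537, 360, 259, 309 and 263 in the p53-/- library, and at 226, 81.9, 61.7, 99.9 and 101 in the p53 AD/- library. From DN-like to cycling-like cells the mean log2 ratio was -0.87 (SD 0.52), with the largest step, -1.46, in the p53 AD/- library. From cycling-like to quiescent DP-like cells it was -0.32 (SD 0.21) and from quiescent DP-like to selected cells 0.37 (SD 0.28), in the same direction in 3 of 3 libraries. Mature SP-like and quiescent DP-like cells had no common order, since the ratio was positive in the p53 AD/- and p53-/- libraries and -0.31 in the p53+/- library. Counting the molecules of a cell in place of its share of UMIs gave a steeper course, because dividing cells were deep: a DN-like cell held on average 10.5, 3.35 and 7.12 Zfp36l2 UMIs in the p53+/-, p53 AD/- and p53-/- libraries, a cycling-like cell 6.96, 1.07 and 5.09, and a quiescent DP-like cell 1.19, 0.133 and 0.645. Scaling by TMM factors (trimmed mean of M-values) moved quiescent DP-like against cycling-like cells by -0.29 to -0.44 on the log2 scale and left the direction of the 3 mean ratios as given.

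**Figure D1:**
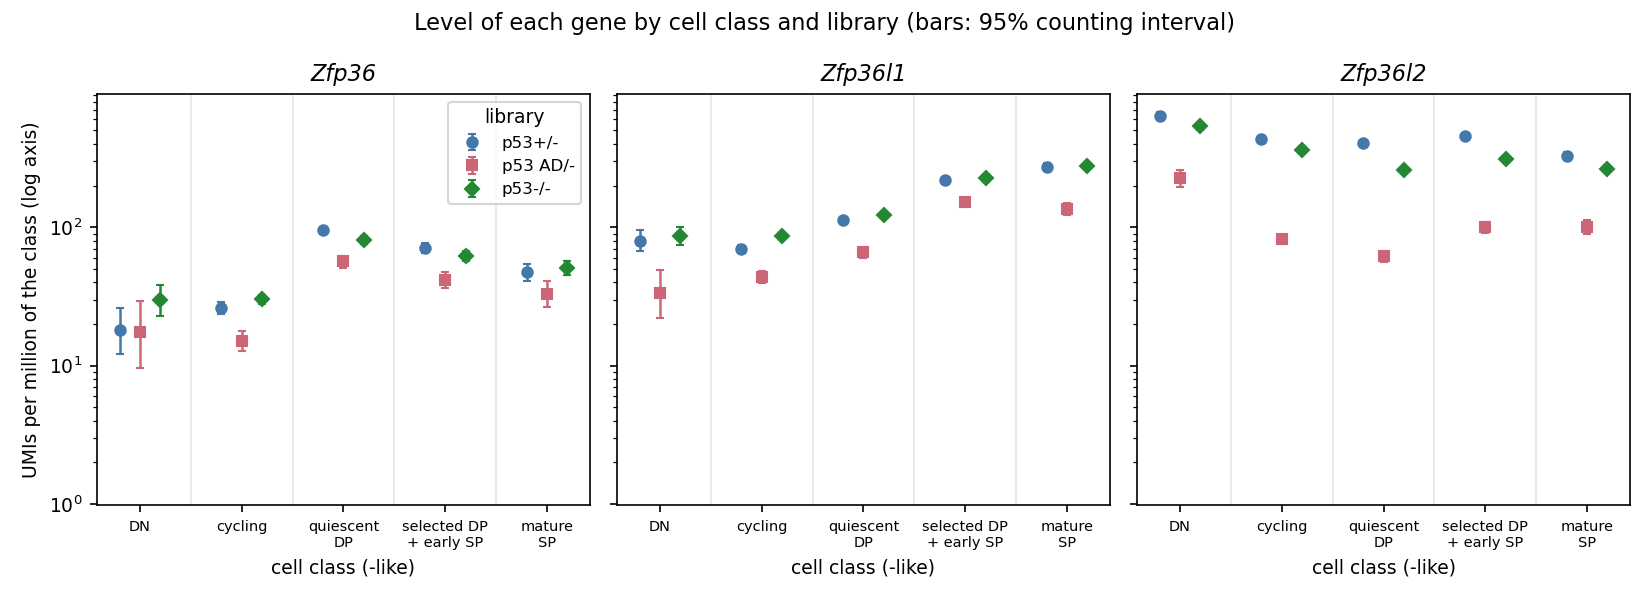
Level of Zfp36, Zfp36l1 and Zfp36l2 in CPM (log axis) in 5 thymocyte classes of the 3 libraries, with exact Poisson 95% intervals for counting error as bars. Zfp36 is highest in quiescent DP-like cells, Zfp36l1 is higher in selected and mature SP-like cells than in earlier ones, and the p53 AD/- library lies lowest for Zfp36l2 in each class.

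Outside the T lineage, the B-like cluster, with as many dendritic as B cell markers among its top 10 genes (20, 27 and 62 cells in p53+/-, p53 AD/- and p53-/-) had Zfp36l1 at 367, 398 and 556 CPM, above each thymocyte class of the same library. Its Zfp36l2 was 221, 48.4 and 68.1 CPM, so here the p53 AD/- and p53-/- intervals (22.1 to 91.9 and 48.5 to 93.1) overlapped and both lay below the p53+/- interval (169 to 284). An unnamed cluster led by Cst3, Tyrobp and Lyz2, genes of myeloid cells, had Zfp36 at 286, 158 and 331 CPM, above each thymocyte class of the same library.

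The libraries were compared next, class by class. In quiescent DP-like cells Zfp36l2 was counted 5167 times in 4341 cells of the p53+/- library, 432 times in 3260 cells of the p53 AD/- library and 2768 times in 4293 cells of the p53-/- library. The level in the p53 AD/- library, 61.7 CPM, was lower by a log2 ratio of -2.72 (interval -2.87 to -2.58) than in p53+/- and of -2.07 (-2.22 to -1.92) than in p53-/-. These are 6.6-fold and 4.2-fold differences, and they are the values for which the family was chosen. Both comparisons use the same p53 AD/- library. The p53-/- library was itself lower than p53+/- (log2 ratio -0.65, interval -0.72 to -0.59), so the 3 libraries stood in the order p53+/-, p53-/-, p53 AD/-.

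The same order held outside the DP stage. Zfp36l2 was more than 2-fold lower in the p53 AD/- library in 5 of 5 thymocyte classes against either other library, with log2 ratios from -1.25 to -2.72. The smallest differences were in DN-like cells (-1.50 against p53+/- and -1.25 against p53-/-), and cycling-like cells had -2.40 and -2.13, selected cells -2.20 and -1.63, and mature SP-like cells -1.71 and -1.38. Among all genes with at least 30 UMIs over the pair, those at least 2-fold lower in p53 AD/- than in p53+/- made up 11.3% in DN-like, 5% in cycling-like, 4.77% in quiescent DP-like, 3.79% in selected and 4% in mature SP-like cells. Against p53-/- the shares were 12.7%, 8.33%, 7.78%, 6.61% and 7.12% in the same order of classes. Zfp36l2 differed between p53-/- and p53+/- by -0.25 in DN-like, -0.27 in cycling-like, -0.57 in selected and -0.32 in mature SP-like cells.

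Zfp36l1 was also lower in the p53 AD/- library in each class, by less than Zfp36l2 except in DN-like cells against p53-/-, where the log2 ratio was -1.35 for Zfp36l1 and -1.25 for Zfp36l2. In quiescent DP-like cells its log2 ratio was -0.76 (-0.91 to -0.60) against p53+/- and -0.89 (-1.04 to -0.73) against p53-/-. It was more than 2-fold lower in 2 of 5 classes, DN-like cells (-1.25 against p53+/-) and mature SP-like cells (-1.01 and -1.04), against either library. Of all genes, 11.3% and 12.7% were at least 2-fold lower in DN-like cells, against p53+/- and p53-/-, and 4% and 7.12% in mature SP-like cells. In selected cells 15.5% and 19.9% of all genes lay at or below the Zfp36l1 ratios. The p53-/- and p53+/- libraries were close, with log2 ratios of 0.03 to 0.30 over the classes and intervals that included 0 in DN-like, selected and mature SP-like cells. In quiescent DP-like cells their ratio was 0.13 (0.02 to 0.24), next to a median of 0.09 over all 11179 genes of that comparison.

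Zfp36 in the p53 AD/- library was lower than in p53+/- by -0.76 (-0.92 to -0.59) in quiescent DP-like cells and lower than in p53-/- by -0.52 (-0.69 to -0.34). In quiescent DP-like cells 8.64% and 24.6% of all genes lay at or below these 2 ratios. Zfp36 was at least 2-fold lower in 0 of 5 classes against p53+/-, where 3.79% to 11.3% of all genes were, depending on the class. Against p53-/- it was so in 1 of 5, the cycling-like cells, at 15 and 30.1 CPM (interval of the log2 ratio -1.27 to -0.74). In that comparison 8.33% of all genes were at least 2-fold lower, and 8.33% lay at or below the Zfp36 ratio. In DN-like cells, with 14 UMIs in p53 AD/-, both intervals included 0 (-1.09 to 0.91 and -1.72 to 0.09). The median of all genes in quiescent DP-like cells was -0.04 for p53 AD/- over p53+/- and -0.13 for p53 AD/- over p53-/-, and TMM factors shift these comparisons by 0.03 and 0.13.

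**Figure D2:**
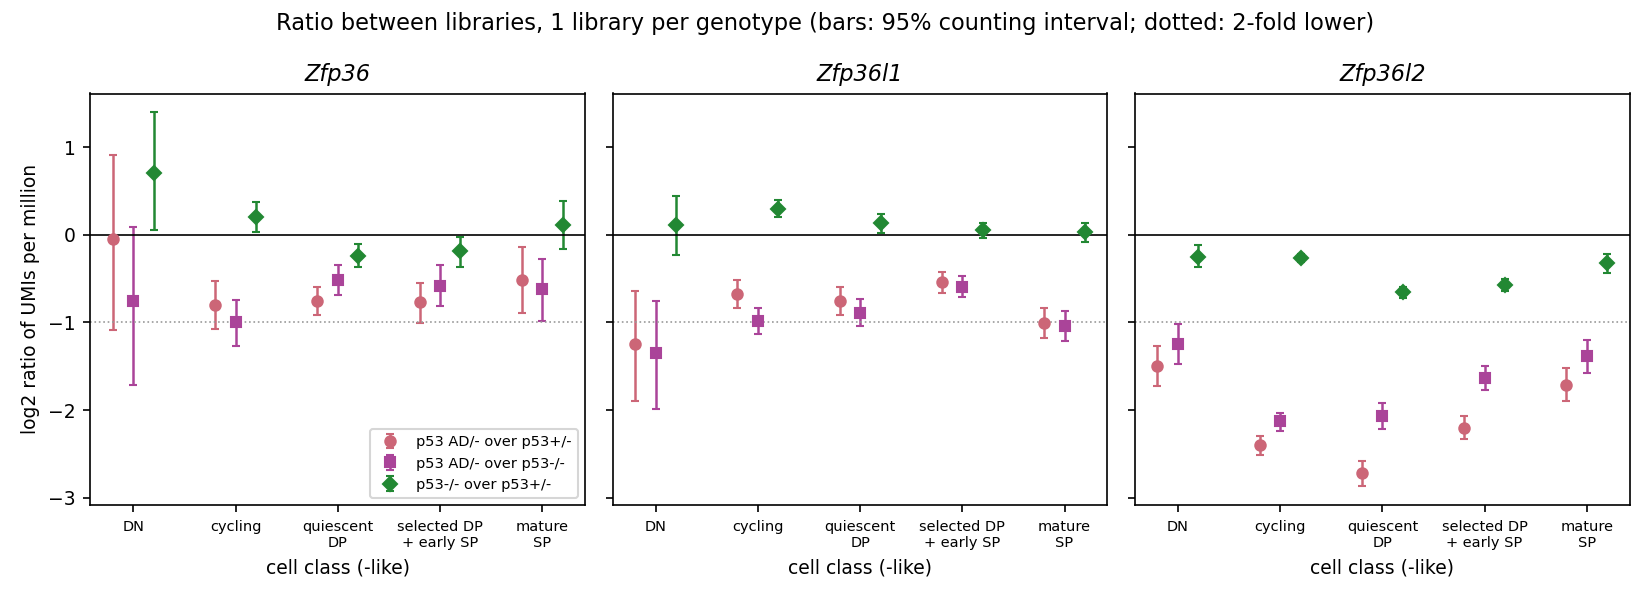
Log2 ratio of CPM between libraries for each gene and thymocyte class, with exact conditional binomial 95% intervals for counting error as bars and a dotted line at 2-fold lower. Zfp36l2 lies below the dotted line in all 5 classes for both ratios with p53 AD/-, as does Zfp36l1 in DN-like and mature SP-like cells, while Zfp36 lies at or above it.

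The low count of Zfp36l2 was spread over the DP cells rather than set by a few. In the p53+/- library 42.8% of quiescent DP-like cells had no Zfp36l2 UMI, 29.2% had 1, 13.2% had 2 and 14.8% had 3 or more, with up to 15 in a cell. In the p53-/- library the shares were 61.6%, 23.5%, 8.76% and 6.06%, with up to 11. In the p53 AD/- library 88.5% of cells had none, 9.94% had 1, 1.41% had 2 and 0.123% (4 cells) had 3 or more, with up to 6. Cells with a UMI made up 57.2%, 11.5% and 38.4% in the order p53+/-, p53 AD/- and p53-/-. After each cell was thinned to 1000 UMIs, leaving out 55, 44 and 45 shallower cells, the shares were 29.4% (28.1 to 30.8), 5.72% (4.94 to 6.58) and 19.3% (18.1 to 20.5), and the order was the same at equal depth. Thinned shares for Zfp36l1 were 9.59%, 6.47% and 10.9%, and for Zfp36 8.4%, 5.1% and 7.56%.

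Malat1, a nuclear RNA whose share of UMIs is used as a sign of cell and RNA quality, moved with the libraries in the same class. Its median share in quiescent DP-like cells was 3.69% for p53 AD/-, against 6.07% for p53+/- and 7.39% for p53-/-, and the median mitochondrial share was 3.5%, 4.3% and 3.89% in that order. Within the p53+/- library Zfp36l2 was lower at high Malat1 shares. It stood at 490 CPM (interval 400 to 594) below 1% Malat1, 519 at 1 to 3% and 337 at 9% or more. The p53-/- library was also lower at high shares, from 408 CPM below 1% to 214 at 9% or more. In the p53 AD/- library the level lay between 43.6 and 73.1 CPM in all 6 ranges of Malat1 share, below the other libraries in each. With cells matched on Malat1 share (1996 per library) the log2 ratio of p53 AD/- over p53-/- was -2.16. For Zfp36l1, matching moved p53 AD/- over p53+/- from -0.76 to -0.60.

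**Figure D3:**
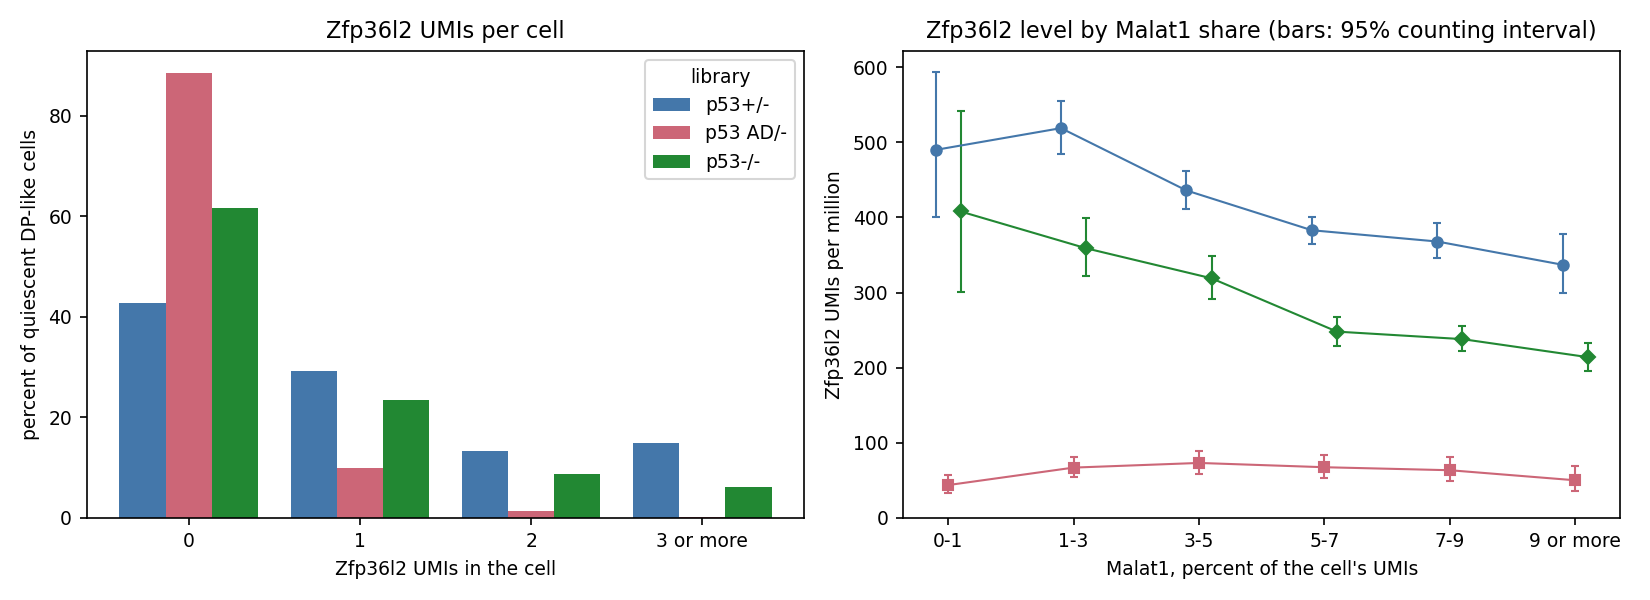
Left, percent of quiescent DP-like cells of each library with 0, 1, 2 or 3 or more Zfp36l2 UMIs; right, Zfp36l2 CPM in cells grouped by the percent of their UMIs from Malat1, with 95% counting intervals as bars. In the p53 AD/- library 88.5% of cells have no UMI, and its level stays between 43.6 and 73.1 in all 6 groups.

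The quiescent DP-like class was made of different clusters in the libraries, which bears on the same comparison. The cluster led by Cd8b1, Rag1 and Ldhb held 2318 of the 3260 p53 AD/- cells but 714 and 380 cells of p53+/- and p53-/-, whereas a cluster led by Rag1, Arpp21 and Malat1 was the largest in the latter, with 1978 (45.6%) and 2540 (59.2%) cells against 263 in p53 AD/-. In the first, Zfp36l2 stood at 57.1 CPM in p53 AD/-, compared with 358 for p53+/- and 177 for p53-/-, and in the second at 65.9 against 360 and 235. Zfp36l2 was thus low in the p53 AD/- library in either cluster. Within the second, the ratios of the relatives were smaller than in the whole class: Zfp36 had log2 ratios of -0.39 and -0.21 and Zfp36l1 of -0.35 and -0.36 for p53 AD/- over p53+/- and over p53-/-, with counting intervals that included 0 in all 4 cases. Zfp36l2 had -2.45 and -1.83 there. In the first cluster, with 2318 p53 AD/- cells, the relatives were not closer than in the whole class. Zfp36 had -0.89 and -0.53 and Zfp36l1 -0.96 and -1.10 for the same ratios, with intervals that did not include 0. Another DP cluster, led by Lgals1 and Ly6d, had the highest Zfp36l2 of the 4 large ones in each library, at 570, 75.8 and 352 CPM. In that cluster Zfp36 had -0.92 and -0.64 and Zfp36l1 -0.68 and -0.87, also with intervals that did not include 0.

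Markers of 9 other cell types were summed in the class, with the libraries in the order p53+/-, p53 AD/-, p53-/-. The largest sum was that of the 6 plasmacytoid dendritic markers (1721, 1468 and 2278 CPM, all 6 with a UMI in each library), a list that holds Ly6d and Ccr9, which were also among the leading genes of thymocyte clusters. The 8 B cell markers summed to 309, 392 and 336 CPM, and Pax5 was among those at 0 in p53 AD/-. The 6 erythroid markers summed to 445, 13.7 and 108 CPM, and Alas2 was among those at 0 in p53 AD/-. The 9 granulocyte markers summed to 37, 5 and 50 CPM, of which 7, 4 and 8 had a UMI. The 8 macrophage markers summed to 48.2, 92.7 and 85.4 CPM, with Adgre1 at 0 in p53+/- and p53 AD/-, and the 9 dendritic markers to 28, 47.7 and 54.2. Endothelial markers summed to 74.7, 55.9 and 80.7 CPM, thymic epithelial markers to 37.2, 29 and 41.4, and fibroblast markers to 8.04, 2.57 and 5.53. Their part in the levels of Zfp36, Zfp36l1 and Zfp36l2 was not tested.

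Around beta selection, the DN-like cells were split by their UMIs of 16 cycling markers. Few had none (1, 2 and 7 cells in p53+/-, p53 AD/- and p53-/-). Zfp36l2 stood at 769 CPM in cells with 1 to 4 such UMIs and at 585 in cells with 5 or more in p53+/-, at 298 and 207 in p53 AD/-, and for p53-/- cells at 546 and 539. The intervals did not overlap in p53+/- (688 to 857 and 542 to 631) and did in the other libraries. Zfp36l1 was lower in the cells with 5 or more, at 61.7 against 128 CPM in p53+/-, 24 against 64.5 in p53 AD/- and 73.2 against 118 in p53-/-. Zfp36 had the same direction, at 13.7 against 30.8, 6.86 against 49.6 and 18.7 against 60.8 CPM. These Zfp36 values rest on few UMIs, 16 and 13 in p53+/-, 4 and 10 in p53 AD/- and 27 and 34 in p53-/-. Intervals overlapped for Zfp36 in p53+/- (7.84 to 22.3 and 16.4 to 52.6). They also overlapped for Zfp36l1 in p53 AD/- (13.1 to 40.3 and 34.4 to 110), and not in the other libraries of either gene. The cells with 5 or more cycling UMIs were also deeper (medians of 15701, 19570 and 15112 UMIs against 10428, 8758 and 8617), and the part of depth was not tested. Among the cycling-like clusters, Zfp36l2 in the p53 AD/- library stood at 88.6 CPM in the one led by Top2a and histone genes, 69.5 in the one with Pcna and 102 in the mitotic one led by Ube2c and Cenpf. In p53+/- the 3 clusters had 469, 391 and 457 CPM and in p53-/- 373, 338 and 365.

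Cell cycle and Notch genes that have been described as targets of the family were mixed between the libraries. Of 11 such genes in quiescent DP-like cells, 5 were higher and 6 lower in p53 AD/- than in p53+/-. Their median log2 ratio was -0.06, beside -0.04 over all genes. Against p53-/-, 2 were higher and 9 lower, with a median of -0.68 beside -0.13 over all genes. Notch1, the receptor that drives DN thymocytes, stood at 25.7 CPM in p53 AD/-, compared with 49.4 for p53+/- and 61.1 for p53-/-. Cdk6, a kinase of G1 progression, stood at 19.7, 33 and 36.1 CPM in that order. In DN-like cells, where both are most abundant, Cdk6 was at 212, 574 and 518 CPM and Notch1 at 127, 283 and 306. Ccnd3, the cyclin of DP cell expansion, went the other way, at 1696 CPM in p53 AD/- against 1130 and 1172. E2f2 (66.6, 64.7 and 85 CPM) and Cdc25a (27, 28.2 and 35 CPM) had intervals that included 0 against p53+/-. The 3' UTRs of 6 of these 11 genes hold the heptamer, among them Notch1 with 4 and Cdk6 with 2, and those of Ccnd3 and Cdc25a hold none.

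Cytokine and other AU-rich genes of the textbook target set were hardly counted in these cells, and 3 of 12 reached 30 UMIs over a pair. All 3 were lower in p53 AD/- than in either library, beside all-gene medians of -0.04 against p53+/- and -0.13 against p53-/-. Pim1, a survival kinase, stood at 71.7 CPM against 98.6 in p53+/- and 94.8 in p53-/-. Bcl2, which blocks apoptosis, stood at 15.6 against 19.4 and 19.5 CPM, and Vegfa, a growth factor of blood vessels, at 1.86 against 2.21 and 3.28, both with intervals that included 0. Of the 12 genes, 11 have the heptamer in the 3' UTR.

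The genes of the machinery that the family recruits are given next. Of 18 genes of the CCR4-NOT complex and other deadenylation factors, 2 were higher and 16 lower in p53 AD/- than in p53-/- quiescent DP-like cells (median log2 ratio -0.40 beside -0.13 over all genes), and 6 were higher and 12 lower than in p53+/- (median -0.22 beside -0.04). The lowest were Tob2, an adaptor of the deadenylase (61.3 CPM against 110 in p53+/- and 138 in p53-/-), and Pan3, of the PAN2-PAN3 deadenylase (113 against 216 and 255). The highest were the adaptor Btg2 (692 against 620 and 522) and the subunit Cnot11 (30.4 against 25 and 29.1). Downstream of deadenylation, 25 decapping, 5'-3' decay and exosome genes had a median of 0.06 against either library, and 16 of 25 were higher in p53 AD/- than in p53+/-. Ddx6, the helicase of decapping complexes, stood at 213 CPM against 301 and 331, and the exosome subunit Exosc4 at 77.1 against 50.9 and 43.7.

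Other RNA-binding regulators of mRNA stability were lower in the p53 AD/- library in most cases. Of 19, 16 were lower than in p53+/- (median -0.31, beside -0.04 over all genes). Against p53-/-, 17 of 19 were lower (median -0.69, beside -0.13 over all genes). Of all genes with a known 3' UTR, 47.2% were higher in p53 AD/- than in p53+/- and 40.5% higher than in p53-/-. Cpeb4, which binds cytoplasmic polyadenylation elements, stood at 9.43 CPM against 35.1 and 30.2. Rc3h2, a Roquin protein that binds stem-loops in 3' UTRs, stood at 44.6 against 90.1 and 98.7. Elavl1 (HuR), which stabilises AU-rich mRNAs, was higher, at 99.4 against 77.5 and 82.2. Kinases, phosphatases and 14-3-3 proteins that act on the family's proteins had a median of -0.18 against p53+/- (11 of 16 lower), beside -0.04 over all genes. Against p53-/- their median was -0.42 (12 of 16 lower), beside -0.13 over all genes. Rps6ka3, a kinase downstream of ERK, stood at 31.9 CPM against 49.8 and 50.5, while the 14-3-3 genes Ywhah (189 against 126 and 137) and Ywhaq (170 against 119 and 131) were higher in p53 AD/-.

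Zfp36 belongs to the immediate early genes, so the other genes of that class were set beside it. Of 19 measured, 5 were higher and 14 lower in p53 AD/- than in p53+/- (median -0.17, beside -0.04 over all genes). Against p53-/-, 7 were higher and 12 lower (median -0.57, beside -0.13 over all genes). Of the 19, 8 were at least 2-fold lower than in p53-/-, as were 7.78% of all genes. Nr4a1, a receptor-induced nuclear receptor, stood at 5.29 CPM in p53 AD/-, compared with 17.3 for p53+/- and 70.3 for p53-/-, and Nr4a3 at 2 against 2.76 and 9.27. Nfkbia (449 CPM against 309 and 327) and Jund (926 against 656 and 676) were highest in p53 AD/-. In the p53-/- library Nr4a1 was thus 2.03 log2 units above p53+/-, whereas Zfp36 was 0.24 below (log2 ratio -0.24). When quiescent DP-like cells were grouped by their immediate early UMIs per 1000, Zfp36 did not follow: it stood at 104, 76.5, 96.9 and 93.7 CPM from 0 to 3 or more in p53+/-, at 61.4, 44.2, 64.8 and 51.9 in p53 AD/- and at 76.1, 83.4, 79.8 and 86.4 in p53-/-. Btg2 and Jund were the most abundant genes of this list, so these groups mostly rank cells by them. A small DP cluster led by Junb, Fos and Dusp5, with 84 of its 103 cells in p53-/-, had Zfp36 at 141 CPM there (24 UMIs, interval 90.4 to 210), and at 542 in 11 cells of p53+/- (14 UMIs, 296 to 909).

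The Zfp36 promoter is shown because it holds 2 motifs of factors that act on immediate early genes. The window runs from 250 bases before to 50 after the start of the gene in RefSeq (GRCm38.p6, chr7:28379179-28379478, minus strand), with the EGR motif GCGGGGGCG and the serum response factor CArG box in capitals.
Zfp36 promoter: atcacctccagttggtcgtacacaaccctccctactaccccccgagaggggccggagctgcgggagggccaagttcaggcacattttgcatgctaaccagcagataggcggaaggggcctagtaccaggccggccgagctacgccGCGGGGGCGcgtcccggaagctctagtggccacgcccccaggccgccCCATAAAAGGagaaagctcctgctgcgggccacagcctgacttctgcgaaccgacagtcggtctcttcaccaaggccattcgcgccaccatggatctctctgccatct
In GENCODE M21 Zfp36 begins further upstream, at 28380253, so this window lies inside the gene span given above. The EGR motif lies 105 bases and the CArG box 58 bases before the RefSeq start. Searched on both strands, they occur in 2.91% and 1.63% of 32851 promoter windows of the same length, and neither overlaps the other. The TATAAA motif was found in the Zfp36l1 window, 29 bases before the start (13.6% of windows hold it), and not in that of Zfp36. The glucocorticoid receptor motif AGAACA, which 19% of windows hold, was not found in the window of Zfp36 or of Zfp36l1. The table had no entry for Zfp36l2.

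Glucocorticoids induce Zfp36 and both relatives in many cells, and of 11 other glucocorticoid-induced or glucocorticoid-related genes measured, 11 were lower in p53 AD/- than in p53+/- quiescent DP-like cells (median -0.74). Against p53-/-, 1 of 10 was higher and 9 lower (median -0.59). Medians over all genes were -0.04 and -0.13 for these comparisons, in that order. Tsc22d3, a standard glucocorticoid target, stood at 109 CPM in p53+/- against 55.6 in p53 AD/- and 57 in p53-/-, and Ddit4, an inhibitor of mTOR signalling, at 116 against 69.3 and 61.4. For these genes p53 AD/- and p53-/- were alike in level and p53+/- was higher, whereas Dusp1 (32.3, 18.9 and 53 CPM in the same order) and Irs2 (14.5, 8 and 24.9) were highest in p53-/-. Zfp36l2 stood at 407, 61.7 and 259 CPM in that order, highest in p53+/- as Tsc22d3 and Ddit4 were. The part of glucocorticoids in its level was not tested. Genes that p53 activates had medians of -0.01 (p53 AD/- over p53+/-, 6 of 13 higher), -0.08 (p53 AD/- over p53-/-, 6 of 13 higher) and -0.19 (p53-/- over p53+/-, 6 of 14 higher). All-gene medians were -0.04, -0.13 and 0.09 in that order. Sesn1 stood at 75.3, 85.4 and 57.7 CPM and Trp53inp1 at 446, 309 and 476 in the order p53+/-, p53 AD/-, p53-/-.

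All genes were then grouped by the heptamer shown above, to see the family's binding letters next to its low RNA. In quiescent DP-like cells, genes with the heptamer had lower median ratios than genes without it in both comparisons with the p53 AD/- library. For p53 AD/- over p53+/-, the median log2 ratio was 0.04 for 6758 genes without a heptamer, -0.14 for 1923 genes with 1 and -0.26 for 1051 genes with 2 or more. For p53 AD/- over p53-/- the medians were -0.05, -0.25 and -0.37. For p53-/- over p53+/- they were 0.09, 0.12 and 0.12, and so hardly differed. The median 3' UTR length moved with the number of heptamers, at 866, 1884 and 2947 bases for the first comparison. Within the genes of shortest 3' UTR, of 3 groups of equal size, the medians for p53 AD/- over p53+/- were 0.16, 0.12 and 0.05, and within the longest they were -0.19, -0.24 and -0.29. Among genes without a heptamer the median thus went from 0.16 in the shortest to -0.19 in the longest group. That step with length was larger than the step with the heptamer within a length group. Cycling-like cells had medians of -0.06, -0.21 and -0.33 for p53 AD/- over p53+/-, and mature SP-like cells 0.05, -0.17 and -0.29. The part of decay in these differences was not tested, and genes that share sequence or length are not independent.

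**Figure D4:**
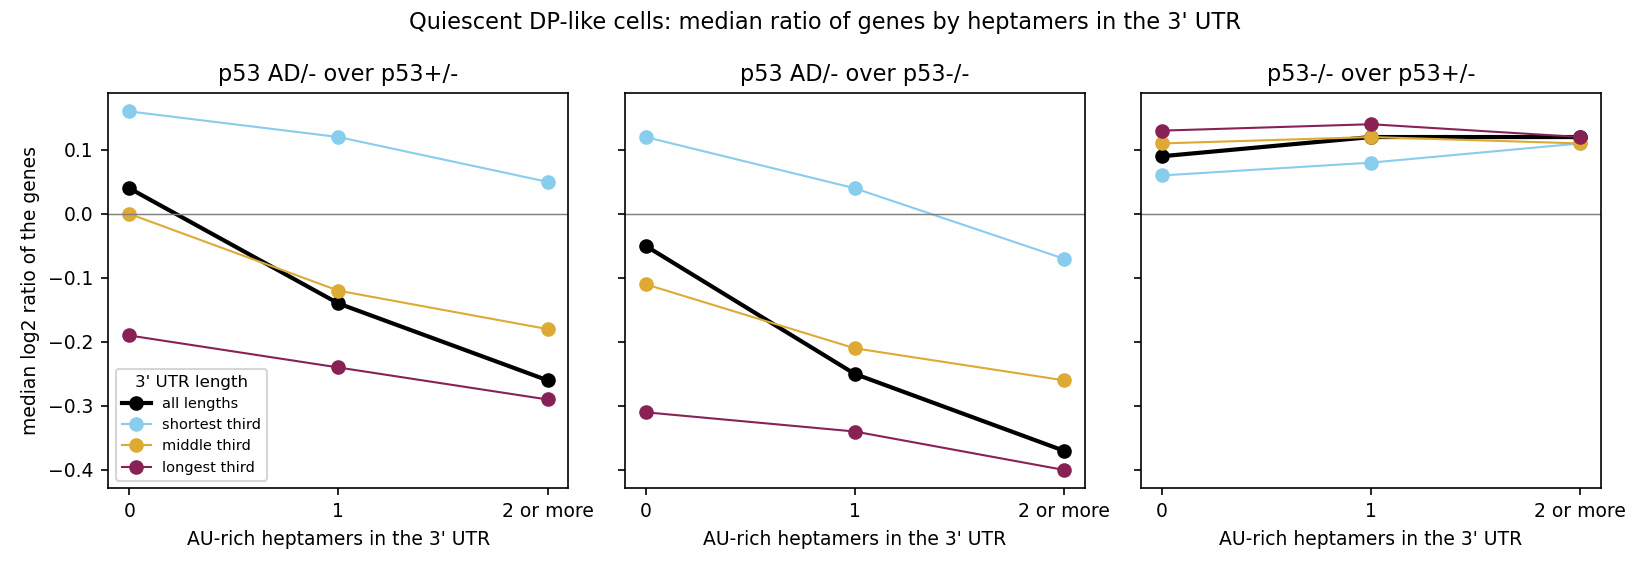
Median log2 ratio between libraries, in quiescent DP-like cells, of genes with 0, 1 or 2 or more AU-rich heptamers in the 3' UTR, for all genes and for 3 groups of equal size by 3' UTR length. Both ratios with the p53 AD/- library fall with the number of heptamers and lie lower for longer 3' UTRs, while p53-/- over p53+/- stays between 0.06 and 0.14.

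Last, the genes most like each member were taken over the 15 points of 5 classes and 3 libraries, by Pearson correlation of log2 CPM among 5291 genes. These are descriptions, since the points share libraries, depth and clusters. For Zfp36 they included Ndfip2, an adaptor of Nedd4-type ubiquitin ligases, and Kmt2c, a histone methyltransferase, each at r = 0.98. For Zfp36l1 they included Mllt6 (0.98) and the myosin heavy chain Myh9 (0.97). For Zfp36l2 these values also carry the low level in the p53 AD/- library by which the family was chosen. The highest were lower, at 0.91 for the noncoding RNA Snhg6 and 0.89 for Xist, the RNA that silences an X chromosome, and for Irf2bp2, a transcription cofactor. Snhg6 stood at 69.2, 25.9 and 52.7 CPM and Xist at 1462, 836 and 1316 CPM in p53+/-, p53 AD/- and p53-/- quiescent DP-like cells, both lowest in p53 AD/-, as Zfp36l2 was. With each library centred on its own mean, which takes out that offset, the genes most like Zfp36l2 were others: Aldh2, an aldehyde dehydrogenase (0.95), Arhgap10, a GTPase-activating protein (0.93), and Supt3 (0.90). Between members, r was 0.66 for Zfp36 with Zfp36l1, and 0.59 after centring. It was 0.08 for Zfp36 with Zfp36l2 and 0.22 for Zfp36l1 with Zfp36l2, and both were negative after centring, at -0.57 and -0.48.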

How the data were processed

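The deposited matrices hold counts of UMIs per gene and cell barcode, as whole numbers, made by the authors with Cell Ranger 4.0.0 on GRCm38, per the submitters' processing notes. Neither annotation nor chemistry nor strandedness is given in the sources used. Of 8880, 6308 and 9889 barcodes (p53+/-, p53 AD/-, p53-/-), with 46498800, 27638820 and 54164425 UMIs, 8150, 6171 and 9543 passed 500 genes and 10% mitochondrial UMIs.

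The 3 libraries were clustered together in scanpy 1.11.5 (2000 variable genes without the 3 members, 30 components, 15 neighbours, Leiden resolution 1), and clusters were named by the one of 17 marker lists with most genes among the top 10, where at least 3 of its markers were detected; ties went to the list with the higher mean difference. Clusters with 1 top marker each of 2 lists, or with MHC class II genes as their sole dendritic markers, stayed unnamed, conditions set after the clusters were seen. Scrublet called 0, 1 and 0 barcodes, so doublet calling did not work and doublets remain. UMIs were summed per class and library and divided by all UMIs of that sum (CPM). Intervals at 95% were exact Poisson for levels, Clopper-Pearson for shares and conditional binomial for ratios (scipy 1.17.1). They cover counting error only. No test between genotypes was possible, each having 1 library. A shift of all genes was read from TMM factors (edgeR 4.0.16). The ratio intervals were run on simulated Poisson counts, the model that they assume. This checks the code and cannot show that they cover spread between cells or mice.

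Members, lists and comparisons were chosen with earlier results of these data known. Genes named were the 3 members, the 3 genes most like each by correlation, and of each of 9 lists the 2 highest and 2 lowest for p53 AD/- over p53-/- among those with at least 100 UMIs. G1 and Notch genes with that many UMIs were also named, and Vegfa was added after its values were seen. Some genes that this rule names are not reported here. Lists used genes with at least 30 UMIs over a pair of libraries. Heptamers were counted in GENCODE M21 3' UTRs, and promoters came from RefSeq (GRCm38.p6), which had entries for 2 of the 3 members. Alternatives covered cell filters, clustering, cell choice and scaling, and the 2 that left out clusters were added after seeing the data.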

Additional observations from a re-analysis of the deposited data

Results flagged for a closer look

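For Zfp36, the difference between p53-/- and p53+/- cells had opposite signs in different classes. The log2 ratio was 0.71 in DN-like, 0.20 in cycling-like and 0.98 in B-like cells, and -0.24 in quiescent DP-like and -0.19 in selected DP and early SP-like cells, each with a counting interval that did not include 0. Some of these intervals came close to 0, at 0.05 to 1.40 in DN-like cells (29 UMIs in p53+/-) and 0.03 to 0.38 in cycling-like cells. In cycling-like cells the median of all genes was 0.08, and 71.7% of genes lay at or below the Zfp36 ratio. There is 1 library per genotype, and the difference between classes was not tested.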

How the results depend on the processing

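Of 195 alternative values for the members' ratios and shares, 159 moved by less than their error and 36 by more. The sign changed in 1, Zfp36l2 in mature SP-like over quiescent DP-like cells (0.14, and -0.01 at Leiden resolution 2), whose libraries had no common order. Of 108 for list medians, 9 changed sign, all of medians between -0.08 and 0.07, and 1 moved (immediate early genes, p53 AD/- over p53-/-, -0.77 with at least 1 UMI in each library). Over 16 alternatives Zfp36l2 in quiescent DP-like cells stayed between -2.76 and -2.31 for p53 AD/- over p53+/- and between -2.16 and -1.83 over p53-/-. The largest quiescent DP-like cluster alone, added after seeing the data, held 263 p53 AD/- cells. There p53 AD/- over p53+/- was -0.39 for Zfp36, -0.35 for Zfp36l1 and -2.45 for Zfp36l2. Over p53-/- the values were -0.21, -0.36 and -1.83, and Zfp36l1 in p53-/- over p53+/- was 0.01. With cells matched on Malat1 share, Zfp36l1 in p53 AD/- was -0.60 against p53+/-, and p53-/- cells had 0.32 for Zfp36l1 and -0.53 for Zfp36l2 against p53+/-. With each library clustered alone, Zfp36l2 was -2.57 (p53 AD/- over p53+/-), and the p53 AD/- library had no DN-like class. Over all filtered cells Zfp36l2 in p53 AD/- was -2.31 against p53+/- and -1.90 against p53-/-, and p53-/- against p53+/- was -0.40 for Zfp36l2 and -0.03 for Zfp36. For p53-/- over p53+/- Zfp36l2 was -0.75 with TMM factors and -0.74 with thinned cells. TMM factors gave quiescent DP-like over cycling-like ratios of 1.39 for Zfp36, 0.24 for Zfp36l1 and -0.67 for Zfp36l2, and mature SP-like over quiescent DP-like ratios of -0.53 for Zfp36 and 1.46 for Zfp36l1. Thinned cells gave 0.20 and 1.41 for these 2 ratios of Zfp36l1, which was 0.98 in the second with at least 1000 genes per cell and 0.98 with members among the clustering genes; Leiden resolution 0.5 gave -1.05 for Zfp36. Thinned shares, lower because cells held fewer UMIs, were 8.4%, 5.1% and 7.56% for Zfp36, 9.59%, 6.47% and 10.9% for Zfp36l1 and 29.4%, 5.72% and 19.3% for Zfp36l2 (p53+/-, p53 AD/-, p53-/-). For the other alternatives the cause was not tested. No paired analysis was possible because each genotype has 1 library. DN-like cells of p53 AD/- (54) and B-like cells (20 to 62) limit what their ratios can show.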
